A study of Homo sapiens with 6 samples.

Results

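The SWI/SNF chromatin remodelling complex was examined in COV434 cells through 10 of its subunits, chosen by symbol from the 16798 genes of the deposited gene table. They were the ATPases SMARCA4 and SMARCA2, the core subunits SMARCB1, SMARCC1, SMARCC2, SMARCD1 and SMARCE1, the ARID subunits ARID1A and ARID1B, and PBRM1. All 10 had a row in the table. SMARCA4 was low among these subunits, though its control mean stood at percentile 49.0 of all genes. SMARCA2 was at the limit of detection with 0 to 4 counts per sample, and the other 8 subunits stood well above both. After 4HC treatment ARID1A and SMARCC1 were downregulated by small amounts, and no member passed the test as upregulated.

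Bulk RNA sequencing was performed on total RNA of COV434 cells, labelled granulosa cells (GCs) of genotype WT, to compare cells exposed to 4HC, the active form of cyclophosphamide (CTX), with controls. The control group had 3 samples, whose labels name no vehicle, and the 4HC group had 3, exposed to a dose of 15 µM over 24 h. All 6 came from 1 cell line, and neither the labels nor the methods say whether replicates were grown separately, so the p-values measure the spread between these samples, which may be technical. The expected counts, which are estimated numbers of reads per gene, summed to 16133786 to 16702316 per sample.

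SWI/SNF complexes use ATP to slide or evict nucleosomes and so open enhancers and promoters. Each complex holds a single ATPase, SMARCA4 or its paralog SMARCA2, on a scaffold of core subunits. The canonical BAF form adds an ARID1 subunit and the PBAF form adds PBRM1 with ARID2. Non-canonical BAF is a further form. COV434 was derived from an ovarian tumour and long used as a GC line. It was later reassigned to small cell carcinoma of the ovary, hypercalcaemic type, a tumour known for inactivating variants of SMARCA4 and for loss of SMARCA2 expression without a variant in the gene. Read counts show neither variants nor protein.

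The GC label was compared with GC markers, of which 10 of 12 were in the table. FOXL2, a transcription factor of the GC lineage, had 0 counts in every control and 3 counts in 1 treated sample. FSHR, the follicle-stimulating hormone receptor, and CYP19A1, the aromatase, each had 1 count summed over the 3 controls. INHBB, NR5A1 and STAR were each at 0.10 TPM or less (a level per transcript length, scaled to a sum of 1e+06 per sample) in every sample. The markers named so far were thus at or near 0, while others of the same list were not. HSD17B1, an estradiol-forming enzyme, was at 19.2 to 24.6 TPM in controls and AMH, the anti-Müllerian hormone, at 3.94 to 6.73 TPM. INHA, the inhibin alpha subunit, was at 0.72 to 1.73 TPM and INHBA, an activin subunit, at 0.13 to 0.25 TPM. AMHR2 and CYP11A1 were not analysed here. The summed marker level, most of it HSD17B1, was 24.1 to 33.3 TPM in control samples and between 28.03 and 29.26 TPM in 4HC samples. None of the 3 tested, HSD17B1, AMH and INHA, passed an adjusted p of 0.05 in edgeR's quasi-likelihood test, where 36.4% of all genes did. INHA had only 8 to 19 counts per sample, so a modest change in it could be missed.

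The promoters of the 2 ATPase genes are shown because these genes are the ones by which this tumour type is defined, and because their levels were the lowest of the 10. Each sequence is the 250 bases before the RefSeq start in GRCh38.p14, plus strand, read 5′ to 3′, with CG dinucleotides in capitals. The SMARCA4 window is chr19:10960780-10961029 and the SMARCA2 window chr9:2015097-2015346.
SMARCA4: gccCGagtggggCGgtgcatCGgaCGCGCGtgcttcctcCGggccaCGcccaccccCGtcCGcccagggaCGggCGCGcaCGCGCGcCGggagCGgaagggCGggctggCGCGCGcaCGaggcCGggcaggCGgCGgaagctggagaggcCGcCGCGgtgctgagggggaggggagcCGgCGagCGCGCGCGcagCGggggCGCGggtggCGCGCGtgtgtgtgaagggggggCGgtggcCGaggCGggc
SMARCA2: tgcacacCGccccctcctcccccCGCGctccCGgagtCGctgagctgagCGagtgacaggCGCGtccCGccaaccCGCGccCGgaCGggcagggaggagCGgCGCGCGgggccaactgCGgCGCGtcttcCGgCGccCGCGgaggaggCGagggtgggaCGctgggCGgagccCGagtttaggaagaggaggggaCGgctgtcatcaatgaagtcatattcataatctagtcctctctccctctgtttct
The SMARCA4 window held 44 CG, and 0.769% of the 35116 windows of the same length held at least as many. The SMARCA2 window held 29 CG, reached by 14.1% of all windows, whose median was 11. Both of these windows held more CG than the median window. The other 3 RefSeq starts of SMARCA2 had 0, 1 and 8 CG in their windows, and a second start of SMARCA4 had 4 CG, reached by 70.7% of all windows. Of the 10 members 8 had a promoter entry, and each of the 8 had a window above the median, so this was not particular to the ATPases. The windows held 16 CG for SMARCB1, 19 for SMARCE1, 28 for SMARCD1 and 30 for ARID1A. The windows of ARID1B held 5 and 37 CG, and those of PBRM1 26 and 40 CG. CG was searched as the letters CG, which read the same on both strands, and methylation was not measured.

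SMARCA4 (BRG1, NCBI Gene 6597, chromosome 19, 10960999 to 11065258 in the deposited table, build GRCh38) was the ninth of the 10 members by level. Its TPM was 6.90, 8.50 and 7.28 in the 3 controls and 7.08, 6.73 and 6.27 in the 3 treated samples. Control replicate 2 was the highest of the 6 and the groups overlapped. The control mean of 7.56 TPM stood at percentile 49.0 of all genes. Among 23 remodeller ATPases SMARCA4 was the nineteenth, and its control range did not overlap that of the next above, CHD6, or of the next below, CHD7.

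SMARCA2 (BRM, NCBI Gene 6595, chromosome 9, 2015343 to 2193624) gave 2, 0 and 3 counts in controls and 0, 2 and 4 counts in 4HC samples. A count of 0 in a sample allows up to 3 counts. Only 4HC replicate 3, with 4 counts, was above that limit, by a small margin, and no fold change is given. Its control mean of 0.03 TPM was the last of the 23 ATPases and lay at percentile 10.9, with 1830 of the 16798 genes at or below it. Of all reads assigned to the ATPase pair in the 6 samples, 11 of 2348 fell on SMARCA2, a share of 0.468% (95% exact binomial interval 0.234 to 0.837%). The share was 0.403% (0.131 to 0.938%) in control and 0.542% (0.199 to 1.18%) in 4HC samples. The intervals overlap, cover counting error only, and show no change detectable at this depth.

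**Figure D1:**
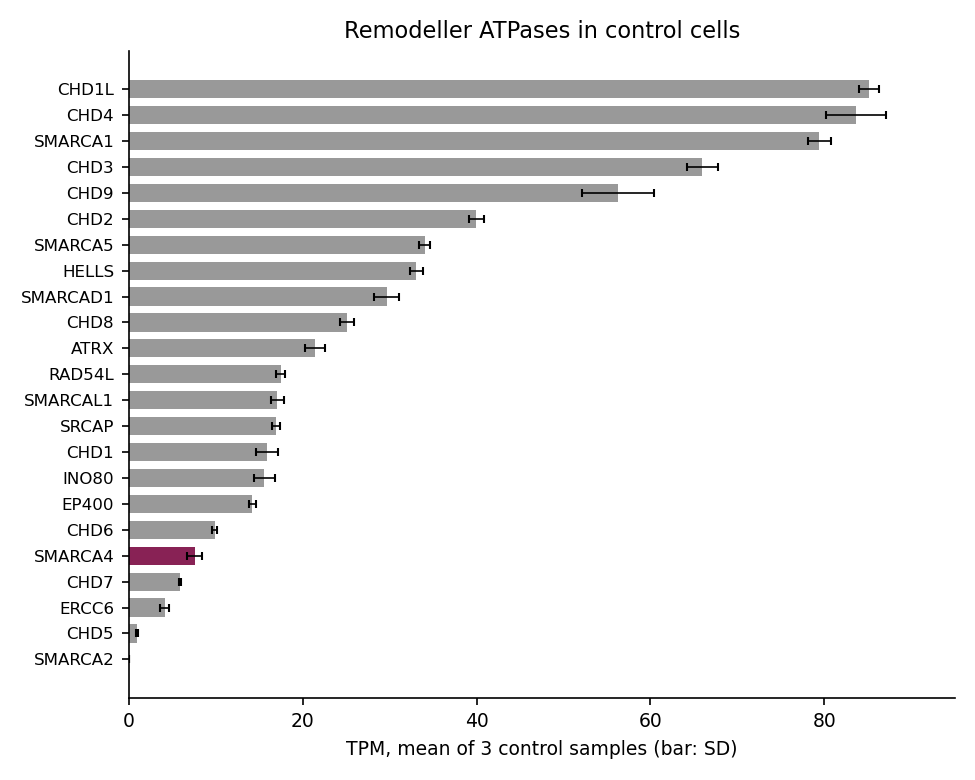
Mean TPM of 23 chromatin remodeller ATPases in the 3 control samples, as horizontal bars with SD as error bars. SMARCA4 is nineteenth at 7.56 TPM, and SMARCA2 is last at 0.03 TPM, while CHD1L leads at 85.1 TPM. Both SWI/SNF ATPases are drawn in colour.

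The core subunits were all far more abundant per length than the ATPases. SMARCC1 and SMARCC2, the paralogous scaffold subunits that dimerize at the base of the complex, reached control means of 60.5 ± 1.11 and 51.1 ± 1.22 TPM (SD, n = 3). SMARCD1, which bridges the core to transcription factors, was at 49.4 ± 1.37 TPM and SMARCE1, the subunit with an HMG domain, at 42.8 ± 1.52 TPM. SMARCB1, which contacts the nucleosome and is the subunit lost in rhabdoid tumours, was the lowest of the core at 26.9 ± 0.353 TPM. Among the form-specific subunits ARID1A, at 53.3 ± 0.766 TPM, was above ARID1B, at 16.2 ± 1.15 TPM, in every sample. PBRM1, the bromodomain subunit of PBAF, was at 14.6 ± 0.147 TPM.

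In the order of control levels the ranges of ARID1A and SMARCC2 overlapped, as did those of SMARCC2 and SMARCD1. Every other pair of neighbours was separated in all 3 controls. The sum of the 10 members was 322 ± 2.01 TPM in control and 303 ± 6.23 TPM in 4HC samples. The SMARCC pair had a TPM of 14.8 ± 1.57 times that of the ATPase pair in controls and 16.1 ± 0.995 times in 4HC samples (exact permutation test, two-sided, p = 0.4). For the ARID1 pair the multiples were 9.23 ± 0.885 and 9.13 ± 0.269 (exact permutation test, two-sided, p = 0.9). The ratios were chosen after the values were seen, and 0.1 is the smallest p that 3 against 3 samples can give.

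The change after 4HC treatment was tested with edgeR's quasi-likelihood test on the counts, with Benjamini-Hochberg adjustment over the 12368 genes that passed the low-count filter and a threshold of 0.05 on the adjusted p-value. The filter kept 9 of the 10 members and removed SMARCA2. Of the 9, 2 passed the threshold, both lower in 4HC, which is 22.2% against 36.4% of all genes tested. Among all genes 17.1% were called lower and 19.2% higher. At an unadjusted p under 0.05 there were 5 of the 9, against 44.5% of all genes. The median log2 fold change of the 9 was -0.07, against 0.00 over all genes. Below 0 were 7 of the 9, most of them not called, against 6069 of all 12368 genes tested. The count was 4 without 4HC replicate 1 and also 4 without 4HC replicate 2, and library size alone as the scaling gave 1 higher and 2 lower. All changes below are of CPM, the counts per library size after TMM scaling, and in bulk RNA fewer cells of a type and less RNA per cell cannot be told apart.

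ARID1A, the DNA-binding subunit that marks canonical BAF (chromosome 1, 26696015 to 26782104), showed the largest change of the 9. Its TPM was 52.4, 53.9 and 53.6 in controls and 47.5, 43.3 and 42.9 in 4HC samples. All treated samples lay below all controls. The mean CPM fell from 283 ± 5.81 to 237 ± 12.2 (SD, n = 3), a log2 fold change of -0.25 (SE 0.036) with an edgeR adjusted p of 9.18e-08. The call was kept under each of 15 alternative settings, with values from -0.30 to -0.22.

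ARID1B, the paralog that takes the same place (chromosome 6, 156776026 to 157210779), was at 17.2, 16.5 and 15.0 TPM in controls and 16.7, 17.0 and 16.8 TPM in 4HC samples. In TPM the treated samples fell within the control range, while in CPM 4HC replicate 2 at 74.4 lay above the highest control at 73.2. Its log2 fold change was 0.04 (95% interval -0.05 to 0.13, edgeR adjusted p = 0.549). The ratio of ARID1A to ARID1B in TPM was 3.04, 3.26 and 3.58 in controls and 2.84, 2.54 and 2.56 in 4HC samples. The groups did not overlap (exact permutation test, two-sided, p = 0.1, the smallest possible). This ratio was chosen after the values were seen and restates them, so it is no separate result.

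SMARCC1 (chromosome 3, 47585269 to 47781893) was the second member called. Its TPM was 59.3, 60.7 and 61.5 in controls and 55.3, 52.5 and 54.3 in 4HC samples, without overlap. Its mean CPM fell from 235 ± 4.31 to 211 ± 4.05, a log2 fold change of -0.16 (SE 0.035, edgeR adjusted p = 0.000292). It was called under all 15 alternatives, with values from -0.17 to -0.13.

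SMARCC2 (chromosome 12, 56162359 to 56190295) was at 52.5, 50.3 and 50.4 TPM in controls and 55.9, 51.3 and 54.6 TPM in 4HC samples. Control replicate 1 lay above 4HC replicate 2, so the groups overlapped. The log2 fold change was 0.09 (95% interval 0.0096 to 0.16, edgeR adjusted p = 0.0714). It passed the threshold in 2 alternatives, at 0.11 without 4HC replicate 2 and at 0.11 with library size alone. The ratio of SMARCC1 to SMARCC2 in TPM was 1.13, 1.21 and 1.22 in controls and 0.989, 1.02 and 0.995 in 4HC samples. SMARCC1 thus exceeded SMARCC2 in all controls and the paralogs were nearly level in 4HC samples. The ratios did not overlap (exact permutation test, two-sided, p = 0.1, the smallest possible). They too were chosen after the values were seen and restate them.

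**Figure D2:**
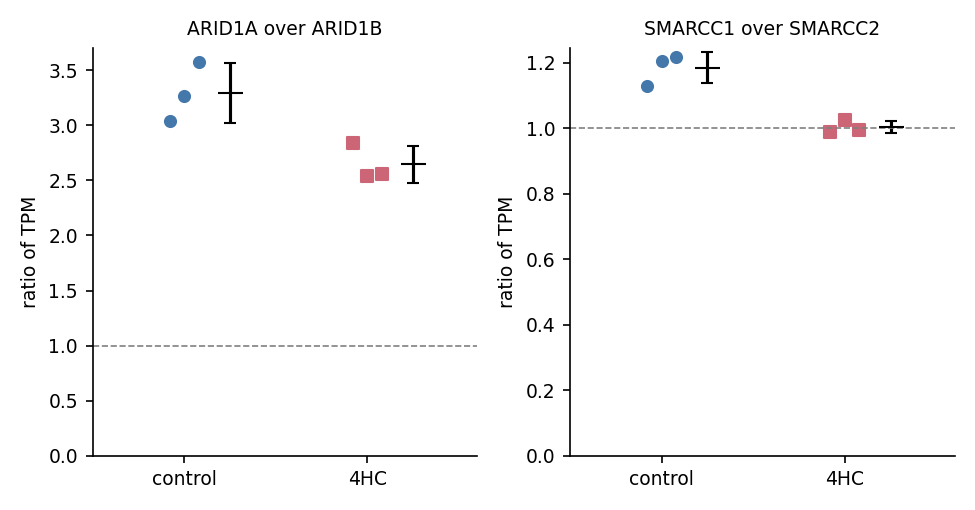
Ratio of TPM of ARID1A over ARID1B (left) and of SMARCC1 over SMARCC2 (right) in each control (circles) and 4HC (squares) sample, with group mean and SD as bars beside the points and a dashed line at equal levels. Both ratios were lower in all 4HC samples than in any control, from a mean of 3.29 to 2.65 and from 1.18 to 1.00.

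SMARCA4 did not pass the threshold. Its mean CPM was 25.2 ± 2.80 in control and 22.4 ± 1.15 in 4HC samples, a log2 fold change of -0.17 (SE 0.072, 95% interval -0.31 to -0.03, edgeR adjusted p = 0.0584). Its control counts of 374, 461 and 401 were the fewest of the tested members, and the CPM of controls had a coefficient of variation of 11.1%, against at most 3.89% in the other tested members. Without control replicate 2, the highest sample, the value was -0.08. It passed the threshold when control replicate 1 was left out (-0.23, edgeR adjusted p = 0.0172) or 4HC replicate 1 was (-0.20, edgeR adjusted p = 0.0445). It also did so with a minimum of 10 counts in every sample (-0.17, edgeR adjusted p = 0.048). The call on SMARCA4 thus changed with single samples.

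SMARCD1 (chromosome 12, 50085236 to 50100707) was at 49.1, 48.1 and 50.8 TPM in controls and 46.6, 46.8 and 44.2 TPM in 4HC samples. The groups did not overlap, which held for 3 of the 9 tested members and for 45.3% of all genes tested. The log2 fold change was -0.11 (SE 0.044, edgeR adjusted p = 0.055). It passed the threshold in 4 alternatives, 2 of which left out 4HC replicate 1 (-0.13) or 4HC replicate 2 (-0.14).

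The remaining 3 members did not pass the threshold, and their groups overlapped. SMARCE1 (chromosome 17, 40624962 to 40647818) had 41.0 to 43.8 TPM in controls and 39.9 to 41.3 TPM in 4HC samples, and a log2 fold change of -0.07 (95% interval -0.14 to 0.01, edgeR adjusted p = 0.192). PBRM1 (chromosome 3, 52544102 to 52685913) had 14.4 to 14.7 TPM and 13.6 to 14.6 TPM, and a log2 fold change of -0.04 (95% interval -0.14 to 0.05, edgeR adjusted p = 0.527).

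SMARCB1 had 26.7 to 27.3 TPM in controls and 24.8 to 27.8 TPM in 4HC samples, the latter on both sides of the controls. Its log2 fold change was -0.02 (95% interval -0.11 to 0.07, edgeR adjusted p = 0.809), and the sign turned under 3 alternatives. In the transcript table each of its 4 transcripts stood in 2 rows with equal counts in every sample, so the gene had 8 rows. No coordinates are given for SMARCB1 because those in the table were not of a single sequence.

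The transcript table had 115 rows for the 10 members, which are 111 distinct transcripts. Of the rows, 79 had a mean count of at least 10 in either group and 65 were tested. None passed the adjusted threshold with edgeR, where 1.29% of the 42216 rows tested did. At an unadjusted p under 0.05 there were 3 of the 65, against 11.0% of all rows tested. DESeq2 called 2 of the 90 member rows to which it gave an adjusted p, against 4.68% of all such rows. These were NM_003074 of SMARCC1 and NM_006015 of ARID1A. They held nearly all counts of their genes, since NM_003074 was the only SMARCC1 transcript listed and NM_006015 held 94.5 to 100% of the ARID1A counts. The edgeR log2 fold changes were -0.15 (adjusted p = 0.0701) for NM_003074 and -0.26 (adjusted p = 0.127) for NM_006015.

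For other members the counts were spread over many transcripts by the counting program. SMARCA4 had 16 transcripts listed and 9 with a mean count of at least 10, and 5 of the 9 were at 0 in some sample. Its leading transcript NM_001374457 held 23.8, 34.6 and 25.8% of the SMARCA4 counts in controls and 48.3, 41.8 and 15.5% in 4HC samples. The shares of 4HC samples reached both above and below those of the controls. PBRM1 had 59 transcripts, and the leading one, NM_181042, held at most 7.25% in any sample. XM_017019886 held 48.4 to 61.8% of SMARCC2, NM_003076 held 66.8 to 74.8% of SMARCD1, and NM_017519 held 15.6 to 33.8% of ARID1B. SMARCE1 had the single transcript NM_003079, and the leading SMARCB1 transcript NM_003073 held 52.6 to 59.6% with its 2 rows added.

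The few SMARCA2 counts fell on 3 transcripts. NM_139045 had 2 counts in control replicate 1 and 4 counts in 4HC replicate 3. NM_001289397 had 3 counts in control replicate 3 and 1.43 in 4HC replicate 2, where NM_001289399 had the remaining 0.57. No transcript of SMARCA2 was above 0 in more than 2 samples.

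**Figure D3:**
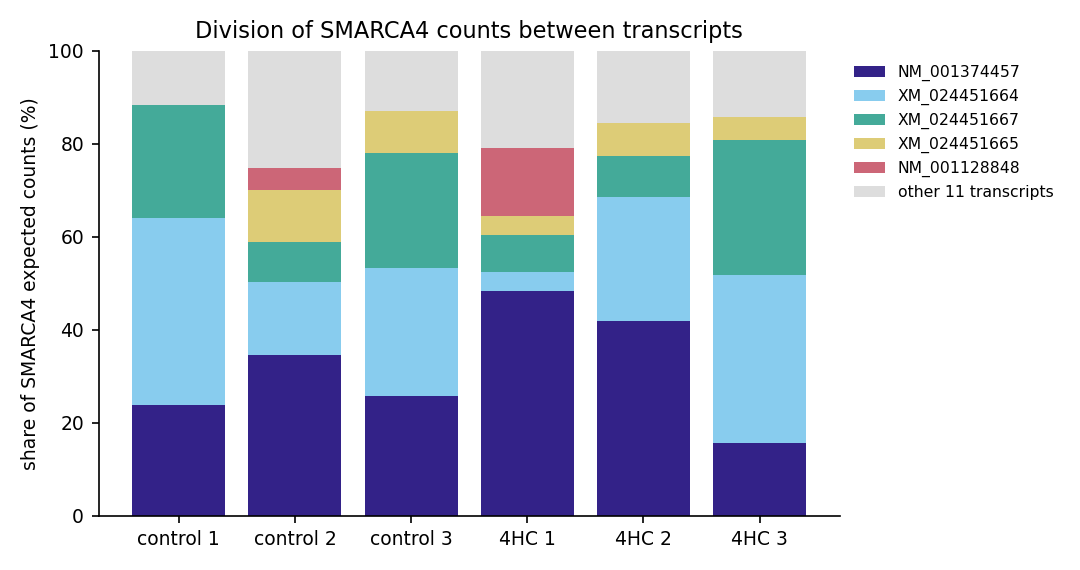
Share in percent of the SMARCA4 expected counts assigned to each of 5 transcripts and to the other 11 together, as stacked bars for the 6 samples. The share of NM_001374457 runs from 15.5% in 4HC replicate 3 to 48.3% in 4HC replicate 1, and NM_001128848 is at 0 in 4 samples.

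Of 21 other SWI/SNF subunits 20 were in the table and BCL11B was not analysed here. Of the 17 tested, 5 passed the edgeR threshold, 2 higher and 3 lower in 4HC, which is 29.4% against 36.4% of all genes. BCL7C and BCL7B, small accessory subunits of BAF, rose by 0.28 (adjusted p = 2.28e-06) and 0.15 (adjusted p = 0.0306) on the log2 scale. DPF1, a PHD finger subunit known from neural BAF, had a log2 fold change of -0.22 (adjusted p = 0.000341). ACTB, the cytoskeletal beta-actin that is also a subunit, had -0.17 (adjusted p = 1.88e-06). BRD9, a bromodomain subunit of non-canonical BAF, had -0.14 (adjusted p = 0.0447). The call was lost in 10 of 15 alternatives for BRD9 and in 8 for BCL7B, among them the removal of single samples, and library size alone gave 3 higher and 2 lower.

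By level ACTB led these subunits at 6507 to 6802 TPM in controls, though it mostly serves the cytoskeleton. BCL7C was at 161 to 172 TPM and SMARCD3, a paralog of SMARCD1, at 93.2 to 96.9 TPM in controls. SMARCD1 was thus the lower of the pair in every control, and SMARCD1 to SMARCD3 summed to 210 ± 1.21 TPM in control and 202 ± 4.59 TPM in 4HC samples. The lowest were DPF3 at 0.02 TPM, BCL11A at 0.0667 TPM and ACTL6B at 0.207 TPM in the control mean, none of them tested. ACTL6B is known as the neuronal counterpart of ACTL6A.

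Against the ATPases of other remodeller families the SWI/SNF pair was low. The controls had 85.1 TPM of CHD1L, 83.7 TPM of CHD4, the ATPase of the NuRD complex, and 79.4 TPM of SMARCA1, an ISWI ATPase. All 21 of these genes were tested, and 11 were called with edgeR, 5 higher and 6 lower in 4HC, which is 52.4% against 36.4% of all genes. The 3 with the largest change had risen. RAD54L, a recombination factor, rose by 0.65 on the log2 scale (SE 0.058, edgeR adjusted p = 1.75e-13). CHD5 rose by 0.57 (SE 0.128, edgeR adjusted p = 0.000373) from a control mean of 0.923 TPM, and by 0.25 with limma on log2(FPKM + 1). HELLS, a remodeller needed for DNA methylation, rose by 0.46 (SE 0.039, edgeR adjusted p = 2.67e-14). With limma on log2 of TPM or FPKM the rise of HELLS was 0.32 to 0.34. Each of the 3 rises was larger in size than the change of any SWI/SNF member tested.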

How the data were processed

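Total RNA of 6 COV434 samples was sequenced, and the reads were filtered with SOAPnuke. The submitters' processing notes name HISAT2, Bowtie2, RSEM 1.3.1, DESeq2 1.4.5 and the build GRCh38.p13, without saying which step each served. The authors deposited expected counts per gene and per transcript without scaling, TPM values scaled to transcript length and a sum of 1e+06 per sample, and FPKM values scaled to length and library size. Their own fold changes, p-values and q-values were not used, nor was a second gene table with the same per-sample values.

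Expected counts were rounded (59 of the 60 member counts were whole) and entered into edgeR 4.0.16 (R 4.3.3), using TMM scaling, filterByExpr and the quasi-likelihood test with group as the only term and Benjamini-Hochberg adjustment over all genes or transcripts tested. Ratios were tested with scipy 1.17.1. The scripts were tested on simulated data. At this depth 3 counts is the limit that a count of 0 allows, and the binomial intervals of the SMARCA2 share cover counting error only. The intervals of fold changes came from the quasi-likelihood fit, which includes the spread between samples. Replicates differed by more than sampling noise (chi-square per gene 1.71 to 2.54).

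Named were the 10 members, other subunits called or among the 3 highest or 3 lowest in control TPM, the 3 remodeller ATPases with the largest called change, the GC markers, and member transcripts that were called or held the largest share. Any other ATPase or transcript named was picked with its values in view. The members and lists were chosen with earlier results of these data known. The alternatives were DESeq2 1.42.0, DESeq2 size factors, library size alone, no filter, a block for the replicate number, at least 10 counts in every sample, limma 3.58.1 on log2 of TPM (pseudocount 1 or 0.1) or FPKM (pseudocount 1), and the removal of each sample.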

Additional observations from a re-analysis of the deposited data

How the results depend on the processing

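The number of members called was 4 with a minimum of 10 counts in every sample and 2 to 4 when single samples were left out. Of the other subunits 3 were called with DESeq2, 3 with limma on FPKM, and 3 to 5 with a sample left out. For other remodeller ATPases limma on FPKM called 7. Among all rows of the transcript table DESeq2 called 2491, the minimum of 10 counts 932, and the removal of single samples 58 to 127, against 546. The cause of these differences was not tested.

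The sign of SMARCB1 turned with library size alone (0.0042) and limma on FPKM (0.0017), and its range with a sample left out was -0.051 to 0.029. SMARCD3 turned with library size alone (0.0070) and limma on FPKM (0.0083). With a sample left out, NM_001374457 ranged from -0.17 to 0.53, XM_017019886 from -0.13 to 0.019 and NM_181042 from -0.18 to 0.23. Every one of these was near 0 or had a wide interval, and none was called.

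The labels number the replicates in both groups. Deviations from the group means were only weakly correlated between same-numbered samples (correlations 0.00866 to 0.0694). With 3 samples per group this cannot show whether they shared a culture or a preparation. With the replicate block 4213 genes, 2 members, 4 other subunits, 10 other remodeller ATPases and 0 transcripts were called. Depth limits SMARCA2, and outlying samples were not tested for, given 3 per group.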

Other observations

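Several transcripts of ARID1B, picked after their values were seen, differed in share between samples while the gene count did not differ. NM_001374828 had 0 counts in the 3 controls and in 4HC replicate 3, but 92.6 and 171 counts in 4HC replicates 1 and 2. XM_011535984 held 2.88, 6.35 and 6.24% of the ARID1B counts in controls and 9.48, 8.98 and 10.1% in 4HC samples, with no overlap and an edgeR adjusted p of 0.423. Among SMARCA4 transcripts, NM_001128845 and NM_001128846 were both above 0 only in control replicate 2 and 4HC replicate 1, as was NM_001128848.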
